A study of Cricetiscus sungorus with 216 samples.

Results

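The circadian clock genes described here are Per1, Per2, Per3, Cry1, Cry2, Clock, Nr1d1, Nr1d2 and Dbp, 9 genes chosen by symbol and followed through the short-photoperiod interval in 4 tissues. All 9 were in the tables of the mediobasal hypothalamus (MBH, 20156 gene symbols), the dorsomedial hypothalamus (DMH, 21821 symbols) and the pituitary gland (22482 symbols). The table of the paraventricular nucleus (PVN, 18960 symbols) held 8 of them, without Per3. The animals were adult male Djungarian (Siberian) hamsters, 3 to 8 months old, and no genotype other than the species is given. One group of 6 stayed in a long photoperiod (LP, labelled LD) of 16 h light and 8 h dark, and 8 further groups of 6 were sampled after 4, 8, 12, 16, 20, 24, 28 or 32 weeks in a short photoperiod (SP, labelled SD) of 8 h light and 16 h dark. PolyA RNA from a 1 mm punch of each hypothalamic region, or from the pituitary gland, was read as cDNA on a nanopore sequencer, giving 54 libraries a tissue from 54 hamsters. Every hamster was killed 2 to 4 h after lights on, so the values give 1 time relative to lights on and no daily rhythm. Lights off came 16 h after lights on in LP and 8 h after it in SP. A shift of a daily rhythm and a change of level cannot be told apart in SP against LP.

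In the mammalian clock, the proteins CLOCK and BMAL1 (gene Arntl) switch on the Per and Cry genes, whose proteins return to the nucleus and repress CLOCK and BMAL1. A second loop runs through the nuclear receptors REV-ERBα and REV-ERBβ (genes Nr1d1 and Nr1d2), which repress Arntl, and output genes such as Dbp carry the rhythm to other pathways. The loop runs in the suprachiasmatic nucleus, the master clock of the brain, and in most other tissues, and melatonin from the pineal gland carries night length to the pars tuberalis of the pituitary gland, where clock genes respond to it.

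Total counts per library ran from 5996 to 13208361 in the MBH (median 1422834), from 149289 to 9084072 in the DMH (median 1626424), from 159 to 998245 in the PVN (median 168903) and from 29219 to 523544 in the pituitary gland (median 81120). Under 10000 counts lay 1 MBH library at 20 weeks and 2 PVN libraries, 1 in LP and 1 at 16 weeks. The normalization factors of edgeR (TMM) spanned 0.187 to 4.45 in the MBH, 0.0850 to 7.90 in the DMH, 0.600 to 19.3 in the PVN and 0.568 to 1.62 in the pituitary gland. The tissue labels were checked against markers. The 7 MBH markers summed to a median of 276.96 CPM (counts scaled to a common library total) in the MBH, and the 8 pituitary markers to 63003 CPM in the pituitary gland. In the MBH, Pomc, Npy, Agrp and Tac2 had medians of 132.9, 98.5, 35.4 and 10.8 CPM, and Ghrh, Kiss1 and Rax of 0, 0.525 and 0.563 CPM. The MBH list does not single out the MBH, as Pomc had a median of 12501 CPM in the pituitary gland. The 6 DMH markers summed to a median of 115.9 CPM in the MBH libraries, where Cartpt had a median of 93.7 CPM. In the PVN table Trh had a median of 151 CPM, Otp 8.84 CPM and Sim1 0 CPM, and Avp, Crh and Oxt had no row. The 3 PVN markers with a row summed to a median of 166.9 CPM in the PVN libraries, less than the 201.6 CPM of the 5 DMH markers with a row there, of which Cartpt gave a median of 194.0 CPM. The libraries labelled DMH did not carry the DMH profile: the 6 DMH markers summed to a median of 3.51 CPM (range 0 to 38.7), with Gpr50, Hmx2, Hmx3, Npvf and Ppp1r17 each at a median of 0. Of the 7 markers of the suprachiasmatic nucleus, the 6 with a row in the MBH summed to a median of 8.51 CPM there. All 7 had a row in the DMH, where the median sum was 0.540 CPM. In the PVN table the median sum was 30.8 CPM. Rgs16 and Grp had medians of 12.76 and 6.03 CPM there, and Lhx1, Nms, Prok2, Six6 and Vip of 0. This list does not single out the suprachiasmatic nucleus, as the 5 markers with a row in the pituitary gland summed to a median of 25.5 CPM. In 1 DMH library at 28 weeks the skeletal muscle markers reached 3150 CPM, against a median of 0.633 CPM over the 54 DMH libraries. Fewer cells of a type and less RNA per cell cannot be told apart in such punches.

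Most clock genes were thinly sampled. A library held a count of 8 of the 9 genes at the median in the MBH, of 4 in the DMH, of 6 of 8 in the PVN and of 4 in the pituitary gland, and 2, 9, 1 and 1 libraries, in that order, held none. In the DMH, the 20 libraries with 5 or more of the genes listed a median of 13445 genes of any kind, and the 34 with fewer listed 4099. The number of clock genes seen in a DMH library moved with how many genes of any kind it listed. Counts were summed over isoform rows, and 1 read can add to several rows: Clock had 15 isoform rows and 3803 summed counts in the MBH, 13.4 times the counts of its most abundant row. Levels are not compared between genes for that reason, nor between the PVN and the other tables, which share no isoform identifier.

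**Figure D1:**
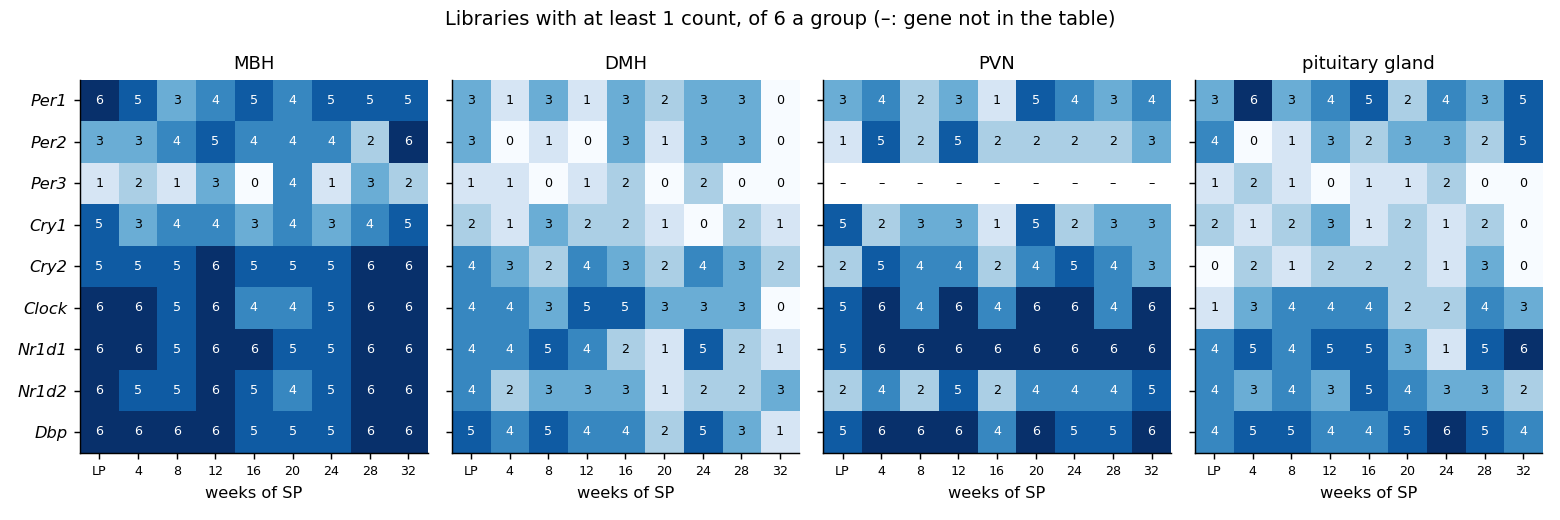
Number of libraries with at least 1 count of each clock gene, of 6 in each group, by tissue (panels) and weeks of SP (columns, LP first); darker cells hold more libraries and a dash marks a gene that is not in the table. In the MBH, Cry2, Clock, Nr1d1, Nr1d2 and Dbp had a count in at least 4 of 6 libraries of each group, and the DMH and pituitary panels hold groups with no count at all.

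The first question was whether the clock genes changed over the interval, and in the MBH and PVN none passed the test. Over the 9 groups, 0 of 9 clock genes were called in the MBH, where 0.442% of all symbols passed a false discovery rate (FDR) of 0.1 in the quasi-likelihood test of edgeR, and 0 of 8 in the PVN, where 0.0158% did. At an unadjusted p under 0.05 the counts were 1 gene (Per3) in the MBH and 0 in the PVN, and DESeq2 called 0 in both tissues. The mean of the 8 SP weeks against LP gave 0 of 9 calls in the MBH (background 0.814%) and 0 of 8 in the PVN (0.0211%), with 1 gene each under an unadjusted p of 0.05, Cry1 in the MBH and Nr1d1 in the PVN. In the DMH, Per2 and Per3 were called over the 9 groups (2 of 9, background 4.62%) and Per2 in SP against LP (1 of 9, 3.91%, with 3.90% of all symbols lower). In the pituitary gland Per3 was called in both tests (1 of 9 each, background 9.56% and 1.36%, with 1.35% of all symbols lower in SP). With the replicate number of the labels as a block, neither DMH gene was called over the 9 groups. The pituitary calls of that test changed too, as given with the processing.

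**Figure D2:**
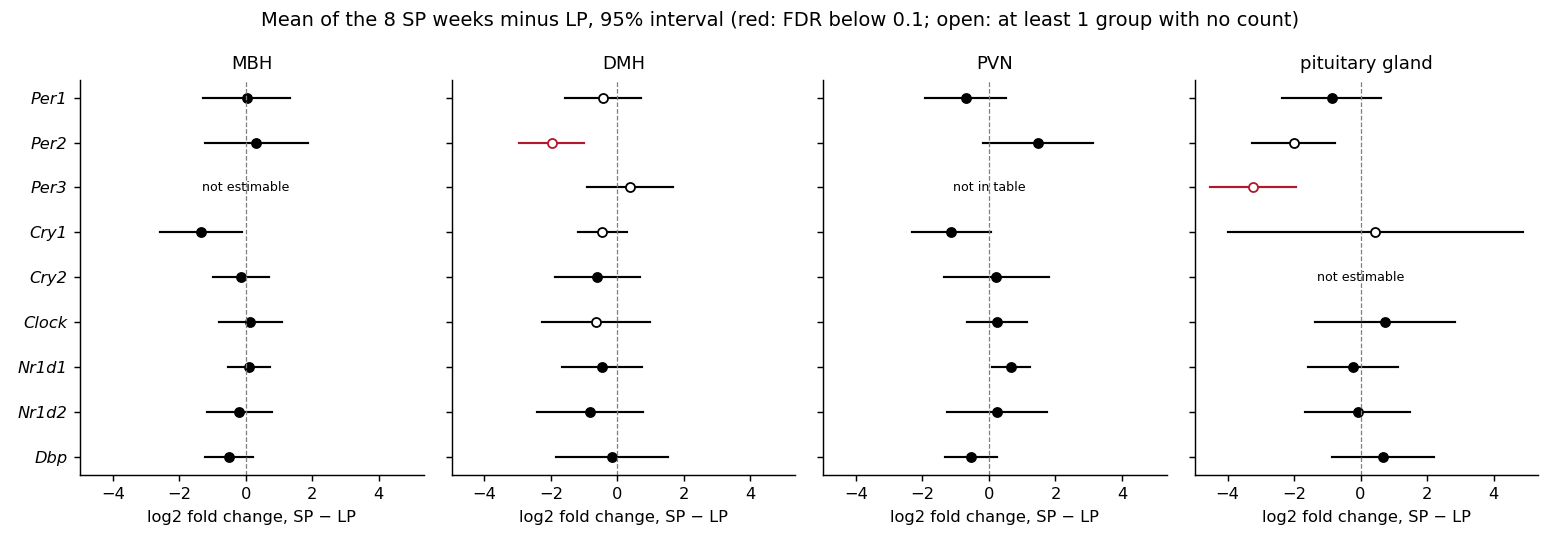
Log2 fold change of each clock gene, mean of the 8 SP weeks minus LP, by tissue, with the 95% interval as a line (from the edgeR p-value on 45 residual degrees of freedom); red marks FDR below 0.1 and open points mark genes with no count in at least 1 group. Most intervals reach more than 1 log2 unit to each side; the red points are Per2 in the DMH (-1.98) and Per3 in the pituitary gland (-3.23).

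The Per genes encode the PERIOD proteins of the repressor complex, and Per1 is among those that light and other acute signals induce. In the MBH, Per1 was at 1.27, 7.42 and 12.2 CPM (lowest, median and highest of the 6 LP libraries). Its group means lay between 4.54 ± 6.20 CPM at 8 weeks and 9.67 ± 7.94 CPM at 20 weeks (SD, n = 6 each). Both groups overlapped LP and each other. The mean difference of SP from LP was 0.03 log2 units (95% interval -1.28 to 1.33, edgeR FDR = 1.0). With an interval that wide, a change of 2-fold in either direction would lie inside it.

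Per2, whose protein is needed for a stable rhythm, was at 0, 0.531 and 6.95 CPM in LP in the MBH and was counted in 35 of the 54 libraries. Group means ran from 0.690 ± 1.34 CPM at 28 weeks to 3.26 ± 3.34 CPM at 32 weeks, 2 neighbouring time points whose libraries overlapped. The SP minus LP difference was 0.32 (-1.23 to 1.87). Per3 was seen in 17 of 54 MBH libraries, 1 of them in LP with 2 counts and none at 16 weeks. Its highest libraries were 2 at 12 weeks with 20.9 and 12.2 CPM, 1 at 28 weeks with 15.4 CPM and 1 at 20 weeks with 13.8 CPM. These levels sum 22 isoform rows. The 220 summed counts of the MBH were 14.7 times those of the most abundant row, which had 15 in all. The medians of these 3 groups were 0.376, 0.401 and 0.578 CPM, and the edgeR FDR over the 9 groups was 0.247.

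In the PVN, Per2 was counted in 1 of 6 LP libraries and in 5 of 6 at both 4 and 12 weeks. The 4-week libraries were at 0, 7.06 and 10.2 CPM and the 12-week libraries at 0, 8.34 and 16.0 CPM, against a highest LP library of 7.11 CPM. The 2-sided exact permutation test gave p = 0.0411 for either week, and p = 0.0801 and 0.0671 once the LP library of 159 counts was left out. The difference over all SP weeks was 1.47 (-0.19 to 3.12, edgeR FDR = 0.984), on 43 counts in all. Per1 in the PVN differed by -0.70 (-1.93 to 0.52).

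The called Per genes of the DMH and pituitary gland rested on few reads. In both tissues Per2 and Per3 fell below the expression filter of edgeR (filterByExpr), and neither was called by DESeq2 or on the most abundant isoform row alone. Per2 in the DMH had 17 summed counts in LP, as 8, 8 and 1 in 3 libraries and 0 in the others, equal to 0.869, 0.581 and 0.256 CPM. Under SP it had no count at 4, 12 and 32 weeks, 1 count in 1 library at 8 and at 20 weeks, and 14, 28 and 10 counts at 16, 24 and 28 weeks. The groups at 16, 24 and 28 weeks overlapped LP, with mean levels of 0.336 ± 0.405, 0.266 ± 0.329 and 0.304 ± 0.481 CPM against 0.284 ± 0.367 CPM in LP. The fitted SP minus LP difference was -1.98 (-2.957 to -0.999, edgeR FDR = 0.0156), and Per2 fell in that test. Because 3 groups had no count, its size depends on the prior count of the fit, and with 1 coefficient for all SP libraries it was -0.99 with an FDR of 0.791. Without the hamsters numbered 1 or those numbered 4, which include the 2 LP libraries with 8 counts, the FDR was 0.221 and 0.153. Over the 9 groups its edgeR FDR was 0.0327, and from 0.113 to 0.161 without the hamsters numbered 1, 3, 4 or 6. A count of 0 in all 6 libraries allows up to 3 counts per group, which at 4 weeks is 0.130 CPM. That limit takes each summed count as 1 read, while the summed Per2 counts were 3.23 times those of its most abundant row. It therefore does not place these groups under the LP mean. The exact permutation p against LP was 0.182 at each of 4, 12 and 32 weeks, unadjusted.

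Per3 in the DMH had 53 summed counts in 7 of 54 libraries and its most abundant isoform row had 6 in all. One library at 24 weeks gave 27 of the counts and 1 at 4 weeks gave 16, and 4 groups had none. It changed over the 9 groups (edgeR FDR = 0.0443, and 0.161, 0.181 and 0.128 without the hamsters numbered 3, 4 or 6), while its SP minus LP difference was 0.38 (-0.92 to 1.67). In the pituitary gland Per3 had 97 summed counts in 8 of 54 libraries, with 40 in a single LP library (192 CPM), 28 in 1 library at 20 weeks (123 CPM), 15 and 9 in 2 libraries at 4 weeks, and 0 at 12, 28 and 32 weeks. The most abundant of its 21 isoform rows had 2 counts in that LP library and 7 in all. Per3 fell in SP against LP by 3.23 on the log2 scale (edgeR FDR = 0.00239). Without the 9 hamsters numbered 2, among them the 1 LP hamster with counts, the difference was 1.23 with an FDR of 1.0. The exact permutation tests of CPM, week by week against LP, gave no p under 0.05 for Per2 or Per3 in the DMH or for any clock gene in the pituitary gland.

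**Figure D3:**
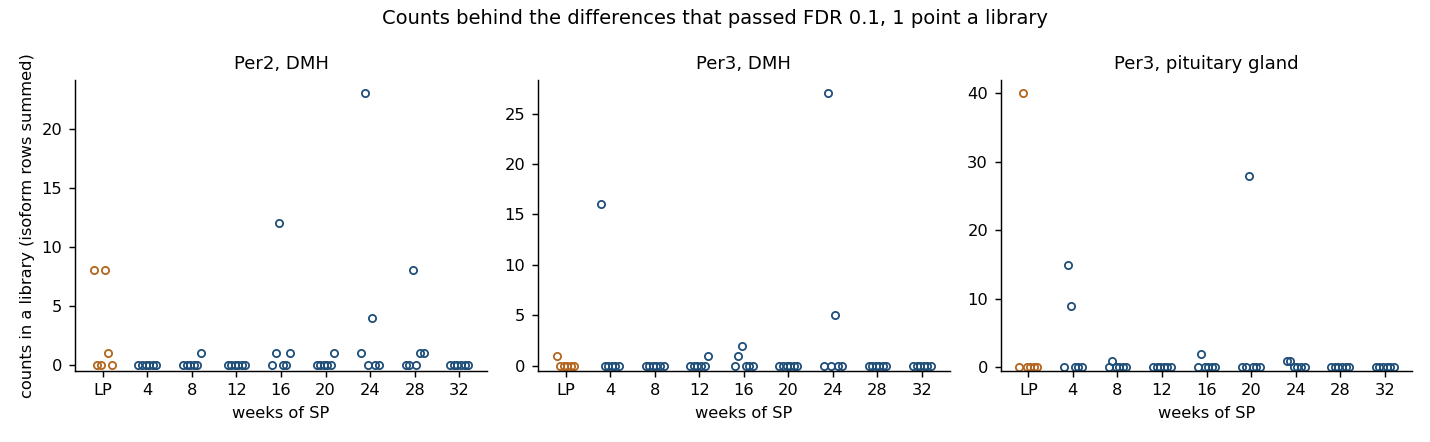
Summed counts of Per2 and Per3 in the DMH and of Per3 in the pituitary gland, 1 point a library, by weeks of SP (LP in orange). Most points lie at 0, and 1 or 2 libraries in a group carry its counts, such as the LP library with 40 counts of Per3 in the pituitary gland.

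Per2 in the pituitary gland did not pass the test but lay low in SP. It was at 0, 20.9 and 86.4 CPM in LP, with a count in 4 of 6 libraries, and all 8 SP group means were under the LP mean of 28.1 ± 32.4 CPM, from 0 at 4 weeks to 23.7 ± 22.2 CPM at 32 weeks. All 8 means were set against the same LP libraries, and the share of all symbols with such a pattern was not computed. The difference was -2.01 (-3.25 to -0.76, edgeR FDR = 0.133), and -1.38 with an FDR of 0.632 without the hamsters numbered 2, since the highest LP library held 18 of the 24 LP counts. Per1 in the pituitary gland was counted in 35 libraries and differed by -0.86 (-2.36 to 0.63). Its highest LP library was at 396 CPM against an LP median of 7.67 CPM.

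The cryptochromes encoded by Cry1 and Cry2 are the partners of the PERIOD proteins, and CRY1 is the stronger repressor. Cry1 had the lowest p of the MBH clock genes in SP against LP. In LP it was at 0, 6.00 and 8.52 CPM (mean 4.97 ± 3.23 CPM, 5 of 6 libraries with a count), and all 8 SP group means were lower, from 0.801 ± 0.967 CPM at 4 weeks to 3.80 ± 4.13 CPM at 20 weeks. These 8 means share the LP libraries, so they are not 8 independent results. How many of all symbols had all 8 means under LP was not computed. At 4 weeks no library exceeded 2.22 CPM and at 32 weeks 1 library reached 4.71 CPM with the others at or under 1.21 CPM. Of the 48 SP libraries, 3 lay above the LP median, yet the LP library at 0 lies within every SP group. The difference was -1.36 log2 units (-2.60 to -0.12, unadjusted p = 0.0317, FDR = 0.611 in edgeR), from -1.92 to -1.07 over the alternatives. It was not called in any of them. The sum of the 8 pituitary markers moved with photoperiod in the same MBH libraries: they summed to 581.1, 1363.6 and 2203.8 CPM in LP, and the SP group medians ran from 34.1 CPM at 24 weeks to 217.9 CPM at 28 weeks, where 1 library reached 1503.8 CPM. Most of their MBH counts were of Cga (17438) and Tshb (4145), beside Lhb (1315), Prl (486) and Gh (326), with Fshb, Gnrhr and Pitx1 at or under 14. The paper's model has low Tshβ in the pars tuberalis under SP. Whether pituitary tissue in the punch or the level of these genes moved was not tested. The part of these markers in the MBH differences of Cry1 and the other clock genes was not tested.

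The same gene was low under SP in the PVN. Cry1 was at 0, 8.46 and 13.8 CPM in LP, the library at 0 being the one of 159 counts, and all 8 SP means lay under the LP mean of 8.01 ± 4.79 CPM, from 1.28 ± 3.13 CPM at 16 weeks to 5.54 ± 3.69 CPM at 20 weeks. The difference was -1.13 (-2.32 to 0.05, edgeR FDR = 0.912) on 49 counts over 27 libraries. Leaving out the libraries under 10000 counts, LP was at 6.19, 9.81 and 13.8 CPM and the exact permutation p of the single weeks, unadjusted, ran from 0.0108 at 4 weeks to 0.0866 at 20 weeks. The 8 weeks share the same LP libraries, so these are not 8 independent results. The share of all PVN symbols with all 8 SP means under LP was not computed. In the DMH and pituitary gland, where 14 libraries each held a count, Cry1 differed by -0.45 (-1.18 to 0.28) and 0.45 (-3.98 to 4.88).

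Cry2 passed no test in any tissue. In the MBH it was at 0, 6.98 and 11.4 CPM in LP, with group means from 3.45 ± 1.84 CPM at 8 weeks to 7.98 ± 3.75 CPM at 32 weeks and an SP minus LP difference of -0.15 (-0.99 to 0.70). The PVN value was 0.22 (-1.36 to 1.80) and the DMH value -0.61 (-1.88 to 0.66). In the pituitary gland Cry2 had no count in LP or at 32 weeks and 25 counts in all, and no interval could be estimated.

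**Figure D4:**
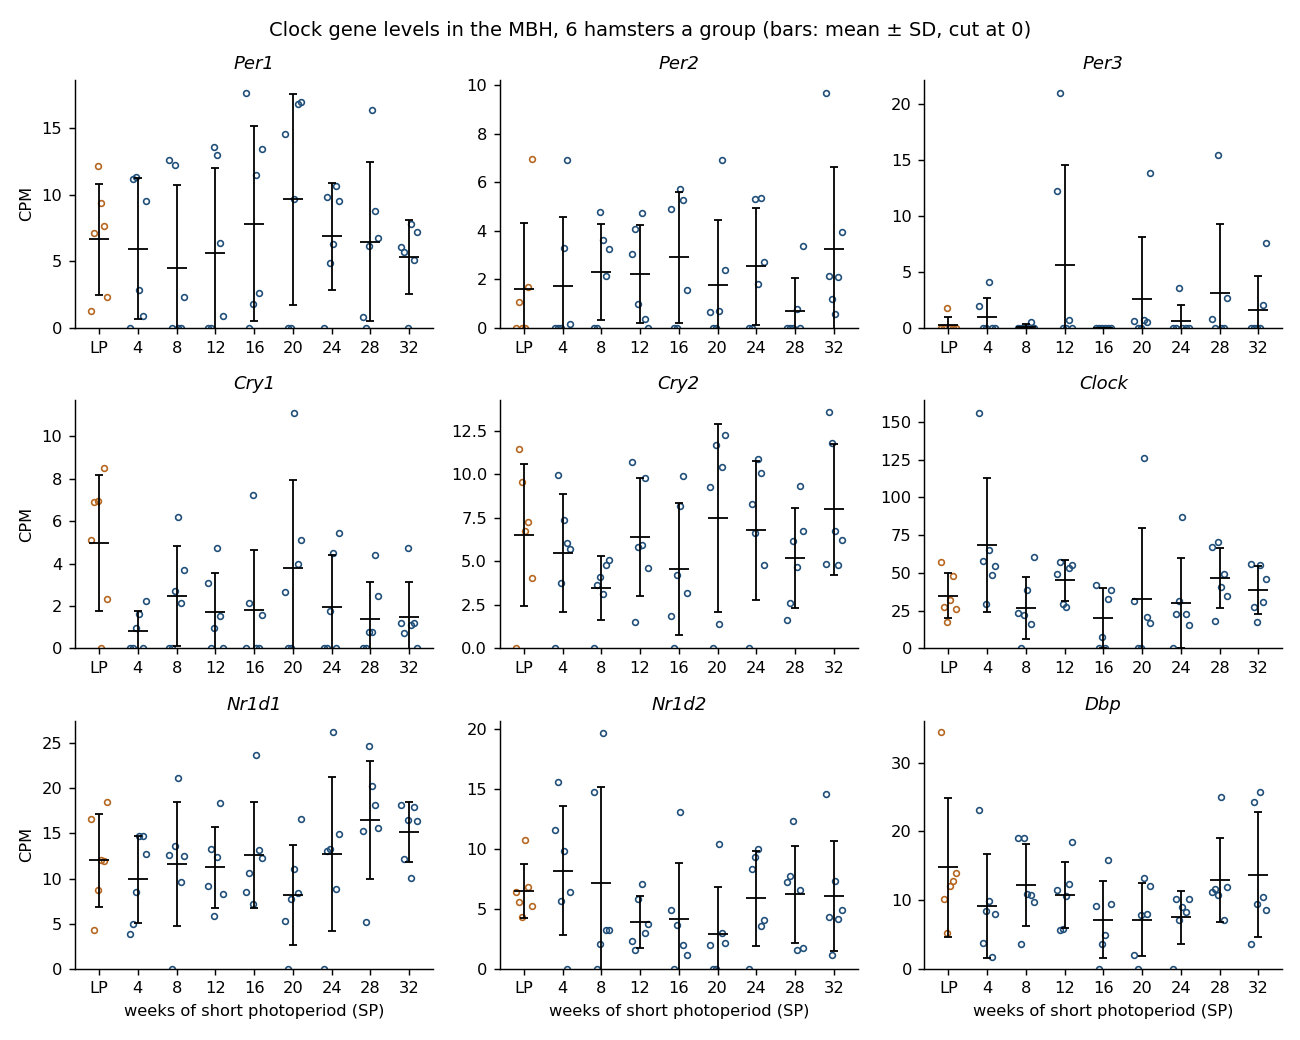
CPM of the 9 clock genes in the MBH by weeks of SP (LP in orange), 1 point per hamster, 6 per group, with mean ± SD in black and bars cut at 0. The Cry1 panel has its highest mean in LP (4.97 CPM), the Clock panel a single 4-week library at 156 CPM, and groups overlap in each panel.

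Clock encodes the activator of the loop together with Arntl. In the MBH it was counted in 48 of 54 libraries. The LP libraries were at 17.4, 29.9 and 57.3 CPM and the 4-week libraries at 29.2, 56.1 and 156 CPM, with means of 34.7 ± 14.9 and 68.5 ± 44.5 CPM. The groups overlapped, and the second highest 4-week library was at 65.1 CPM (exact permutation p = 0.0455, unadjusted). The lowest mean was 20.1 ± 19.8 CPM at 16 weeks, where 2 of 6 libraries had no count. SP minus LP was 0.13 (-0.81 to 1.07). In the PVN the LP libraries were at 0, 29.7 and 55.1 CPM, the group means ran from 26.998 ± 15.8 CPM at 12 weeks to 56.1 ± 30.1 CPM at 32 weeks, and the difference was 0.24 (-0.66 to 1.14). Over the 9 groups the unadjusted edgeR p of Clock was 0.322 in the MBH and 0.516 in the PVN. An order of weeks was not tested.

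In the DMH, Clock had 4 LP libraries between 7.17 and 7.91 CPM and 2 without a count. At 32 weeks no library had a count. That group also had the lowest total depth of the DMH groups, a median of 689433 counts against 1696526 in LP. Weeks 24 to 32 against weeks 12 to 20 gave -3.15 (-5.40 to -0.89, edgeR FDR = 0.749), and single libraries at 20 and 28 weeks reached 86.7 and 85.1 CPM on 15 and 43 counts. The part of depth in these values was not tested. In the pituitary gland, 27 libraries had a count of Clock, 1 of them in LP, and SP minus LP was 0.73 (-1.38 to 2.84).

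Nr1d1 and Nr1d2 encode the REV-ERB repressors. Nr1d1 was counted in 51 MBH libraries, as Dbp was, and in 53 of 54 PVN libraries, and its MBH groups overlapped throughout. LP was at 4.25, 12.0 and 18.5 CPM, the group means lay between 8.19 ± 5.55 CPM at 20 weeks and 16.5 ± 6.56 CPM at 28 weeks, and SP minus LP was 0.09 (-0.54 to 0.72). That interval lies inside a 2-fold change in either direction. Weeks 24 to 32 against weeks 12 to 20 gave 0.45 (-0.04 to 0.93, edgeR FDR = 1.0).

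In the PVN, Nr1d1 was higher in SP libraries than in LP libraries without passing the test across all genes. The LP libraries were at 0, 45.9 and 90.3 CPM, a mean of 41.96 ± 32.1 CPM. After 4 weeks they were at 93.6, 106 and 152.7 CPM, a mean of 111 ± 21.6 CPM. All 6 libraries of 4 weeks lay above every LP library, and the 2-sided exact permutation p of 0.00216 is the smallest that 6 against 6 can give. Among PVN symbols with a count in at least 43 libraries, 1.35% to 6.34% had p under 0.05 in a single week. The share of them that separated completely from LP was not computed. The later SP means were lower than at 4 weeks but above LP, from 74.6 ± 23.6 CPM at 32 weeks to 92.6 ± 27.3 CPM at 8 weeks, and 46 of 48 SP libraries exceeded the LP median. All weeks were set against the same LP libraries, and how often other symbols did likewise was not computed. Adjusted over the 280 exact tests of clock genes against LP, the 4-week p became 0.606. The edgeR difference over all SP weeks was 0.67 log2 units (0.10 to 1.23, unadjusted p = 0.0223, FDR = 0.866), between 0.48 and 1.04 over the alternatives.

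One LP library of the PVN had 159 counts in all and no count of Nr1d1. Without it the LP libraries were at 13.8, 49.1 and 90.3 CPM (mean 50.4 ± 27.5 CPM), the 4-week exact permutation p stayed at 0.00216 and those of the other weeks ran from 0.0108 at 20 weeks to 0.145 at 32 weeks. Depth differed too, with a median of 128138 total counts in LP and 288590 at 4 weeks, and over the 54 libraries log2 CPM of Nr1d1 had an r of 0.667 with the log total after group means were removed, against a median r of 0.577 over the filtered genes of the table. The part of depth in the difference was not tested.

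**Figure D5:**
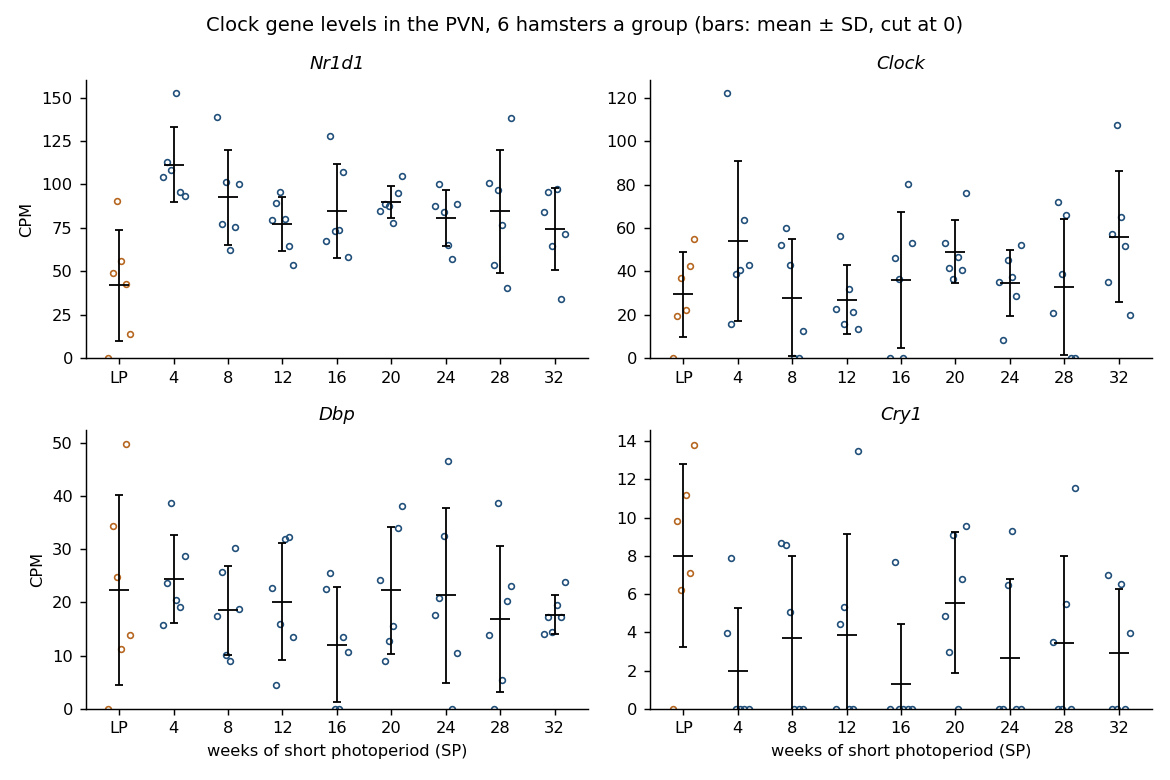
CPM of Nr1d1, Clock, Dbp and Cry1 in the PVN by weeks of SP (LP in orange), 1 point per hamster, 6 per group, with mean ± SD in black and bars cut at 0. The Nr1d1 panel has its lowest mean in LP (41.96 CPM) and its highest at 4 weeks (111 CPM), while the highest Cry1 mean is in LP (8.01 CPM).

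In the pituitary gland, Nr1d1 was counted in 38 libraries, and its group means ran from 7.24 ± 17.7 CPM at 24 weeks, where 1 library had a count, to 43.6 ± 44.3 CPM at 4 weeks. SP minus LP was -0.23 (-1.58 to 1.12) there and -0.47 (-1.67 to 0.74) in the DMH. Nr1d2 in the MBH was at 4.35, 5.97 and 10.7 CPM in LP, with means from 2.92 ± 3.86 CPM at 20 weeks to 8.15 ± 5.38 CPM at 4 weeks and a difference of -0.20 (-1.18 to 0.77). Its PVN and pituitary differences were 0.23 (-1.27 to 1.74) and -0.08 (-1.662 to 1.501). In the DMH all 8 SP means of Nr1d2 lay under the LP mean of 2.39 ± 4.41 CPM, which 1 LP library at 11.3 CPM carried, and the difference was -0.83 (-2.42 to 0.76). How often all symbols had such a pattern was not computed.

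Dbp encodes a transcription factor driven directly by the loop. In the MBH the LP libraries were at 5.22, 12.4 and 34.4 CPM, and all 8 SP means lay under the LP mean of 14.7 ± 10.1 CPM, from 7.15 ± 5.27 CPM at 20 weeks to 13.7 ± 9.10 CPM at 32 weeks. The 8 SP means share the LP libraries, and the share of all symbols with all of them under LP was not computed. The groups overlapped, and the highest LP library stood apart from the next at 13.9 CPM. SP minus LP was -0.51 (-1.23 to 0.21, edgeR FDR = 0.930). The PVN value was -0.54 (-1.31 to 0.23), with LP libraries at 0, 19.3 and 49.8 CPM and the 32-week libraries at 13.99, 17.2 and 23.7 CPM. In the DMH and pituitary gland the differences were -0.17 (-1.86 to 1.51) and 0.67 (-0.86 to 2.20).

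The second question was whether any clock gene followed the interval itself, falling and returning within 32 weeks. No single SP week against LP gave a call for a clock gene in edgeR in any tissue, where 0.00930%, 0.00401%, 0% and 0.00278% of the tests of all genes and weeks in the MBH, DMH, PVN and pituitary gland passed. The contrast of weeks 24 to 32 with weeks 12 to 20 gave 0 calls of 9, 9, 8 and 9 genes in the MBH, DMH, PVN and pituitary gland (backgrounds 0.00992%, 0%, 0% and 0.302%), with 0, 2, 0 and 0 genes under an unadjusted p of 0.05 and 0 called by DESeq2. A sine and cosine of a 32-week period gave 0 calls as well (backgrounds 1.71%, 3.07%, 0.538% and 5.70%), with 0, 2, 0 and 0 genes under an unadjusted p of 0.05. The 2 in the DMH were Per1 (FDR = 0.428) and Per2 (FDR = 0.145). The intervals leave room for change: in the MBH the contrast of late with middle weeks spanned -1.45 to 0.85 for Per2 and -0.49 to 0.96 for Clock. Of the 280 exact permutation tests of 1 week against LP, 15 had p under 0.05, 10 of them among the 64 in the PVN, 4 among the 72 in the MBH, 1 in the DMH and 0 in the pituitary gland. Over all symbols and weeks 2.39%, 2.53%, 2.18% and 0.811% of the same tests had p under 0.05 in these tissues, in that order. Among symbols with a count in at least 43 libraries, the share was 4.202% in the PVN and 3.95% in the MBH. For clock genes counted that often it was 6 of 24 tests in the PVN and 1 of 40 in the MBH. No clock gene was counted that often in the DMH or pituitary gland. The 10 PVN tests with p under 0.05 were 6 weeks of Nr1d1 and 2 each of Per2 and Cry1. The 8 weeks share the LP libraries with the one of 159 counts among them, and the lowest adjusted p over the 280 was 0.606.

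Other genes of the clock and its output were followed from a list of 24 symbols, of which the MBH, DMH, PVN and pituitary tables held 22, 21, 20 and 22. Over the 9 groups 1, 2, 0 and 3 of them were called, beside 0.442%, 4.62%, 0.0158% and 9.56% of all symbols. In SP against LP 0, 1 (lower), 0 and 0 were called, beside 0.814%, 3.91%, 0.0211% and 1.36%. Arntl, the partner of Clock, had MBH group means between 15.2 and 33.8 CPM and an SP minus LP difference of -0.19 (SE 0.611, edgeR FDR = 1.0), and in the pituitary gland -1.87 (SE 0.693, FDR = 0.288) on 74 counts. Arntl2, a paralogue of Arntl, was called in the MBH over the 9 groups (FDR = 0.0225), in weeks 24 to 32 against 12 to 20 (FDR = 0.00951) and in the 32-week harmonic (FDR = 1.15e-05). It was the only 1 of the 22 listed genes called in either of the latter 2 tests, beside 0.00992% and 1.71% of all symbols. Its calls under the alternative settings are not reported here. It had no count in any MBH library at 12 and 16 weeks and 1 count at 20 weeks, and was at 0, 4.31 and 26.5 CPM at 28 weeks and 0, 3.70 and 18.6 CPM at 32 weeks, with 4 of 6 libraries above 0 in each. Against LP, where 1 of 6 libraries held 13 counts, the exact permutation p was 0.152 at 28 weeks and 0.106 at 32 weeks.

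Arntl2 was called in the DMH too (9 groups FDR = 0.0263, harmonic FDR = 2.87e-05), on 31 counts in 6 libraries. The harmonic called 1 of the 21 listed genes there, beside 3.07% of all symbols. Timeless, whose protein acts at the replication fork and with the clock, was called in the DMH (9 groups FDR = 0.0564, SP minus LP -1.54 with FDR = 0.0623), where 1 LP library held 10 counts. The pituitary calls were Timeless (FDR = 0.0333, on 11 counts in 2 libraries), its partner Tipin (FDR = 0.0245) and the deubiquitinase Usp2 (FDR = 0.0905). Tipin had no count in LP and 19 and 44 counts at 4 and 16 weeks, in 4 of 6 libraries each. Usp2 had 2 counts in LP and 54 at 8 weeks.

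Levels could be set side by side between tissues of the same hamsters only where 1 fit joined the tables. For the MBH against the DMH, 5281 genes passed the expression filter and 64.5% of them were called, with a median difference of 0.62 log2 units. Clock and Nr1d1 were the clock genes tested and both were called, Clock at 1.06 (SE 0.427, FDR = 0.0315) and Nr1d1 at 0.66 (SE 0.247, FDR = 0.0193), the latter near the median of all genes. Clock was not called without the hamsters numbered 1 (0.76, edgeR FDR = 0.177), nor Nr1d1 without those numbered 5 (0.51, edgeR FDR = 0.104). Arntl was higher in the MBH by 2.10 (SE 0.456, FDR = 0.000216). The SP minus LP change did not pass a test of its difference between MBH and DMH for any gene: 0 of 5281 were called in edgeR and 0 in limma, with 104 genes under an unadjusted p of 0.05, and Clock gave 0.75 (SE 1.18) and Nr1d1 0.32 (SE 0.749). For the pituitary gland against the MBH, Clock was the only clock gene among the 2060 tested, at -0.11 (SE 0.488, FDR = 0.844 in edgeR) where 79.4% of genes were called and the median was -0.98. The value depended on the method, as limma on log2 CPM gave -1.04 (FDR = 0.0269) and edgeR without the filter -1.09 (FDR = 0.0588), both called lower. The median over all genes tested was -1.54 in limma, where 85.8% were called, and -0.81 in edgeR without the filter. Without the expression filter, 4 of 9 clock genes were called between MBH and DMH (background 42.5%) and 5 of 9 between pituitary gland and MBH (background 60.3%), and 0 in the difference of the SP minus LP change (background 0%). The study's methods name another library kit for the pituitary gland than the labels do, and tissue and kit cannot be told apart in that comparison.

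No relation between regions of the same hamster was detected. After group means were removed, log2 CPM in the MBH and PVN of the same 54 hamsters gave Pearson r of -0.051 for Clock (permutation p = 0.715, Spearman rho -0.037, p = 0.788), -0.095 for Nr1d1 (p = 0.472, rho -0.133, p = 0.336) and -0.076 for Dbp (p = 0.585, rho -0.067, p = 0.631). These 3 relations were the ones tested, with a count in 43 or more libraries of both tissues, and the adjusted p was 0.715 for each r. Leaving out the 2 hamsters farthest from the median of the MBH level gave r of 0.036, -0.138 and -0.002. The library totals of the same hamsters had an r of -0.100 between the tissues.

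Within a tissue, pairs of clock genes were described over the libraries. Among Cry2, Clock, Nr1d1, Nr1d2 and Dbp in the MBH, the 10 pairs had r between 0.092 (Cry2 with Nr1d2) and 0.605 (Clock with Dbp), with a median of 0.430 over 54 libraries. Each gene also had an r with the log library total, from 0.248 for Nr1d2 to 0.599 for Nr1d1, where the median of all filtered genes was 0.475, so the points share library and depth. In the PVN the 3 pairs of Clock, Nr1d1 and Dbp had r from 0.003 to 0.391, and from -0.228 to 0.212 without the libraries under 10000 counts. The genes most like a clock gene over the 54 MBH libraries were taken from the 9220 that passed the expression filter. Clock was most like Tcn2 (r = 0.838), Nr1d1 like Npepps (0.897), Nr1d2 like Ddx3x (0.799), Dbp like Stk38l (0.779), Per1 like Zfp385a (0.757), Cry2 like Mturn (0.739) and Cry1 like Azi2 (0.655), and Per3 was most like Ap4e1 (0.551) with Timeless at rank 3 (0.498). In the DMH, among 7237 genes, Clock was most like Atf2 (0.736), Nr1d1 like Prrc2b (0.818) and Dbp like Psmd8 (0.844).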

How the data were processed

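PolyA RNA of 54 samples in each of 4 tissues was sequenced as cDNA on nanopore flow cells. Per the study's methods the authors basecalled with guppy, trimmed and filtered with Porechop and Filtlong, aligned with Minimap2 to the mouse genome and quantified isoforms with Salmon. The deposited values are expected counts per isoform, which the authors estimated with Salmon and gathered in 1 table a tissue. Which annotation served for the PVN was not given in the sources used here. A filter on low counts that the study made with edgeR was not applied.

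Isoform rows were summed per gene symbol and rounded to whole counts. A read can add to several isoform rows, so sums are not reads. edgeR 4.0.16 (R 4.3.3) with TMM scaling and its quasi-likelihood F-test in the form of edgeR 3 was run per tissue over all symbols without a filter, and FDR is the Benjamini-Hochberg adjusted p with a threshold of 0.1. The tests were the 9 groups, each SP week against LP, the mean of the 8 SP weeks against LP, weeks 24 to 32 against 12 to 20, and a sine and cosine of 32 weeks. Tissues of the same hamsters were joined in a fit with hamster as a block and filterByExpr. CPM values use TMM-scaled totals. The 95% intervals come from the test's p on 45 residual degrees of freedom. Single weeks were compared with LP by 2-sided exact permutation tests of CPM (924 splits, smallest p 0.00216), run over all symbols for the background, and correlations by 100000 permutations of log2 CPM (prior count 2) after removing group means. They rest on the spread between hamsters. A group at 0 allows up to 3 counts, a limit that covers counting error only and takes each summed count as 1 read. Python 3.11.15, numpy 2.4.6, pandas 2.3.3, scipy 1.17.1 and matplotlib 3.10.9 served for the rest. The fits were tested on simulated data.

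Each hamster gave 1 sample per tissue, and hamsters of a group are its replicates. Replicate numbers were shared between groups, and their pairing was checked by correlating deviations from group means. Alternatives were DESeq2 1.42.0, its size factors, no TMM, filterByExpr, the most abundant isoform row, edgeR 4 quasi-likelihood, a replicate block, limma 3.58.1 for the joined fits, and leaving out each replicate number or the libraries under 10000 counts. No TMM, 1 coefficient per phase and no filter in the joined fits were added after the data were seen. All 9 clock genes were named, with those of the 24 listed clock and output genes past the threshold, Arntl, and the likest genes by r, of which 3 were taken per clock gene and the first is named. The members and lists were chosen with earlier results of these data known. No sequences were used here.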

Additional observations from a re-analysis of the deposited data

Results flagged for a closer look

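Of 106 groups of 6 libraries tested, 13 held a highest or lowest library flagged in Dixon's test at 95%. Its gap to the next exceeded the critical share of the group's range. Normally distributed values would be flagged in about 1 in 20 groups. CPM of low counts stop at 0 and need not be normal, so the chance rate here is not known. In the MBH, Clock had a library at 156 CPM at 4 weeks (next 65.1 CPM) and at 86.7 CPM at 24 weeks (next 31.4 CPM). Cry1 had one at 4.71 CPM at 32 weeks (next 1.21 CPM), on 4 counts. Dbp had libraries apart at 34.4 CPM in LP (next 13.9 CPM), at 24.95 CPM at 28 weeks (next 11.9 CPM) and at 0 CPM at 24 weeks (next 7.09 CPM). At 16 weeks the same hamster, number 4, was highest for Nr1d1 at 23.7 CPM (next 13.2 CPM) and for Nr1d2 at 13.1 CPM (next 4.88 CPM). At 32 weeks Per1 had a library at 0 CPM (next 5.07 CPM) and Per2 one at 9.68 CPM (next 3.93 CPM), on 8 counts. In the other tissues the libraries apart were Clock in the DMH at 16 weeks, 31.02 CPM (next 7.90 CPM), Nr1d1 in the PVN at 4 weeks, 152.7 CPM (next 113.2 CPM), and Nr1d1 in the pituitary gland at 4 weeks, 127 CPM (next 43.7 CPM), on 9 counts.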

How the results depend on the processing

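In the MBH and PVN, 0 clock genes were called in any per-tissue test under any alternative run. The calls of the DMH and pituitary gland did not hold so widely, and the cause was not tested. Over the 9 groups, the 2 clock genes called in the DMH became 0 under filterByExpr (which removed them), the most abundant isoform row, edgeR 4 quasi-likelihood and DESeq2, and the 1 called in the pituitary gland became 0 under filterByExpr, the most abundant isoform row and DESeq2 and 3 under edgeR 4. In SP against LP, the 1 called in the DMH became 0 under the same 4 settings and with 1 coefficient for all SP libraries, and the 1 in the pituitary gland became 0 under filterByExpr, the most abundant isoform row, DESeq2 and 1 coefficient, and 2 under edgeR 4, which also gave 4 weekly calls in the pituitary gland in place of 0. The 32-week harmonic gave 1 call in the DMH in place of 0 without TMM. The joined fits without a filter called 4 clock genes in place of 2 between MBH and DMH and 5 in place of 0 between pituitary gland and MBH, and limma gave 1 for the latter. On the most abundant isoform row no clock gene passed the filter of the joined fits, so none was tested. Leaving out each replicate number gave 0 to 2 (DMH) and 1 to 2 (pituitary gland) calls over the 9 groups, 0 to 1 and 0 to 2 in SP against LP, 0 to 1 in the harmonic of each, 1 to 2 between MBH and DMH, and a median r of PVN pairs from 0.047 to 0.386.

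Differences that turned in sign were all of genes not called, except Per3 in the pituitary gland. Under the most abundant isoform row SP minus LP was -0.079 for Per1 in the MBH, 0.14 for Per1 and 0.40 for Dbp in the DMH, and -0.39 for Cry1 and 0.0076 for Nr1d2 in the pituitary gland. With 1 coefficient it was 0.23 for Per1 and 0.32 for Clock in the DMH, under DESeq2 -0.031 for Cry2 and -0.016 for Nr1d2 in the PVN and 0.022 for Nr1d2 in the pituitary gland, and with the size factors of DESeq2 0.025 for Nr1d2 in the pituitary gland and 0.14 for Clock between pituitary gland and MBH. The r of Clock between MBH and PVN was 0.036 without the 2 farthest hamsters. Leaving out each replicate number, SP minus LP ran in the MBH from -0.21 to 0.21 for Per1, -0.27 to 0.11 for Cry2, -0.069 to 0.27 for Clock and -0.041 to 0.25 for Nr1d1. In the DMH it ran from -1.26 to 0.26 for Per1, -1.10 to 0.42 for Cry1 and -0.51 to 0.12 for Dbp. In the PVN it ran from -0.0016 to 0.39 for Clock and -0.12 to 0.87 for Nr1d2. In the pituitary gland it ran from -1.62 to 0.48 for Per1, -3.85 to 1.23 for Per3, -0.15 to 1.30 for Cry1, -0.62 to 0.60 for Nr1d1 and -0.64 to 0.39 for Nr1d2. Clock between pituitary gland and MBH ran from -0.61 to 0.24, the difference of the Nr1d1 change between MBH and DMH from -0.33 to 0.77, and the r of Clock between MBH and PVN from -0.15 to 0.14.

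The replicate numbers were not taken to pair the samples, since the labels give no shared litter, batch or day. The main fits and the exact permutation tests did not use them. Same-numbered libraries had r down to -0.159, -0.513, -0.200 and -0.125 in the MBH, DMH, PVN and pituitary gland. What the numbers mark was not tested. As a hint from the data, 28, 26, 28 and 43 of the 54 libraries correlated best with their own number, where an even share over the 6 numbers is 9. With the replicate number as a block the calls over the 9 groups were 0 in the DMH (FDR = 0.127 for Per2 and 0.188 for Per3 in edgeR) and 4 in the pituitary gland (Per1, Per2, Per3 and Clock), those in SP against LP stayed at 1 each, 1 weekly call arose in the pituitary gland, and Per1 in the MBH was -0.011. Counts over all genes moved more: the 9 groups called 89 genes in the MBH (0.442% of its symbols), from 4 under filterByExpr to 1.23% of the symbols without TMM, and over all settings 1 to 1943 in the DMH, 0 to 75 in the PVN and 1 to 2531 in the pituitary gland, and SP against LP 7 to 164, 0 to 1323, 0 to 9 and 1 to 680. Late against middle weeks called 0 to 28, 0 to 219, 0 to 2 and 1 to 514, the harmonic 8 to 345, 0 to 752, 0 to 105 and 3 to 1342, and single weeks 6 to 291, 0 to 11, 0 to 16 and 5 to 1900. In the DMH the median SP minus LP difference of filtered genes was -0.35, and -1.01 without TMM. No DMH or pituitary library lay under 10000 counts, so leaving such libraries out gave no value there. The harmonic was not run in DESeq2.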
